A study of Mus musculus with 6 samples.

Results

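Kinesins are motor proteins that walk along microtubules, and the genes described here are those of the mouse table whose symbol begins with Kif followed by a digit or the letter c. The pattern took 42 of 21878 genes, none of them an antisense gene. Of these, 41 encode kinesin heavy chains, and Kif1bp encodes a protein that binds heavy chains and is not itself a motor. Expression was measured by bulk RNA sequencing of prefrontal cortex, without sorting of cells, from 3 control mice and 3 Gls1_CamkIIaCre mice, at 17987807 to 19330961 counts per library. Both groups carried CamKIIα-Cre, a transgene that makes Cre recombinase in excitatory forebrain neurons. Control mice were littermates with no floxed allele, and Gls1_CamkIIaCre mice carried 1 floxed allele beside an unfloxed copy. The genotype field calls the controls WT although they carry Cre, so both groups share that transgene. Deletion is heterozygous and mosaic, limited to neurons in which Cre was active, and mice with both alleles floxed did not survive. The tissue also held glia, vessels and other neurons, and age and sex are not given in the labels. The comparison asks how the cortical levels of these genes differ between the groups.

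Cargo moves along axons and dendrites on microtubules, and most kinesins walk toward the plus ends, which point to the synapse in axons. Heavy chains fall into subfamilies by their motor domain: kinesin-1, kinesin-2 and kinesin-3 carry vesicles, mitochondria and RNA, kinesin-4 and kinesin-13 also act on microtubule growth, and kinesin-14 moves toward minus ends. Other members work in cilia or in the mitotic spindle, and spindle motors are little used in neurons that no longer divide.

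Of the 42 members, 37 passed the filter on low counts and were tested. In the Gls1_CamkIIaCre cortex 5 rose and 2 fell, at a Benjamini-Hochberg adjusted p under 0.05 over 14440 genes in edgeR's quasi-likelihood test. The higher genes were Kif21b, Kif3b, Kif1bp, Kifc2 and Kif1b, and the lower ones Kif17 and Kif13b. Every one of these differences was small, between 1.10-fold and 1.18-fold for the higher genes, while Kif17 stood at 0.841 and Kif13b at 0.872 of control. The share called was 18.9% of tested members against 8.24% of all genes tested. By direction, 13.5% of members were higher against 3.95% of all genes, and 5.41% were lower against 4.29%, so the count of lower members was near the background.

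The median log2 fold change (Gls1_CamkIIaCre over control) of the 37 tested members was 0.076, against -0.0024 over all genes tested. A positive value was found for 26 members, 70.3%, against 49.2% of all genes. At an unadjusted edgeR p under 0.05 stood 10 members, 8 higher and 2 lower. With both directions pooled this was 27.0% against 22.4% of all genes, so the pooled share was close to the background. Shares of all genes by direction were not counted at this looser threshold.

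The excess of higher calls held with other count models and shrank on the FPKM values. DESeq2 called 5 members higher and 0 lower, where 3.08% and 3.14% of all genes were called, and both Kif17 and Kif13b had an unadjusted p under 0.05. Limma voom gave 5 and 0 against 3.23% and 3.73% of all genes, and a non-robust edgeR fit gave 4 and 0 against 3.23% and 3.84%, again with both lower genes at an unadjusted p under 0.05. Transcripts of the members are long, with a median of 5564 bases for the longest annotated transcript against 3489 over all genes tested. When length and GC content were corrected for, 4 members were higher and 1 lower, against 3.4% and 2.5% of all genes. On log2(FPKM + 1) limma called 0 higher and 1 lower, against 0.803% and 3.86% of all genes, with 5 and 2 members at an unadjusted p under 0.05. On log2(FPKM + 0.1) it called 1 and 1, against 0.845% and 4.2%. Without each library in turn 2 to 4 members were higher, where 1.35% to 3.81% of all genes were. The count was 2 without control 2, Gls1_CamkIIaCre 2 or Gls1_CamkIIaCre 3, and 3 without control 1. Both lower genes were called without control 1, where 3.06% of all genes were lower, and 0 without any other single library, where 1.49% to 3.72% were, with both at an unadjusted edgeR p under 0.05 each time. Few genes of any kind were called higher on the FPKM scales.

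**Figure D1:**
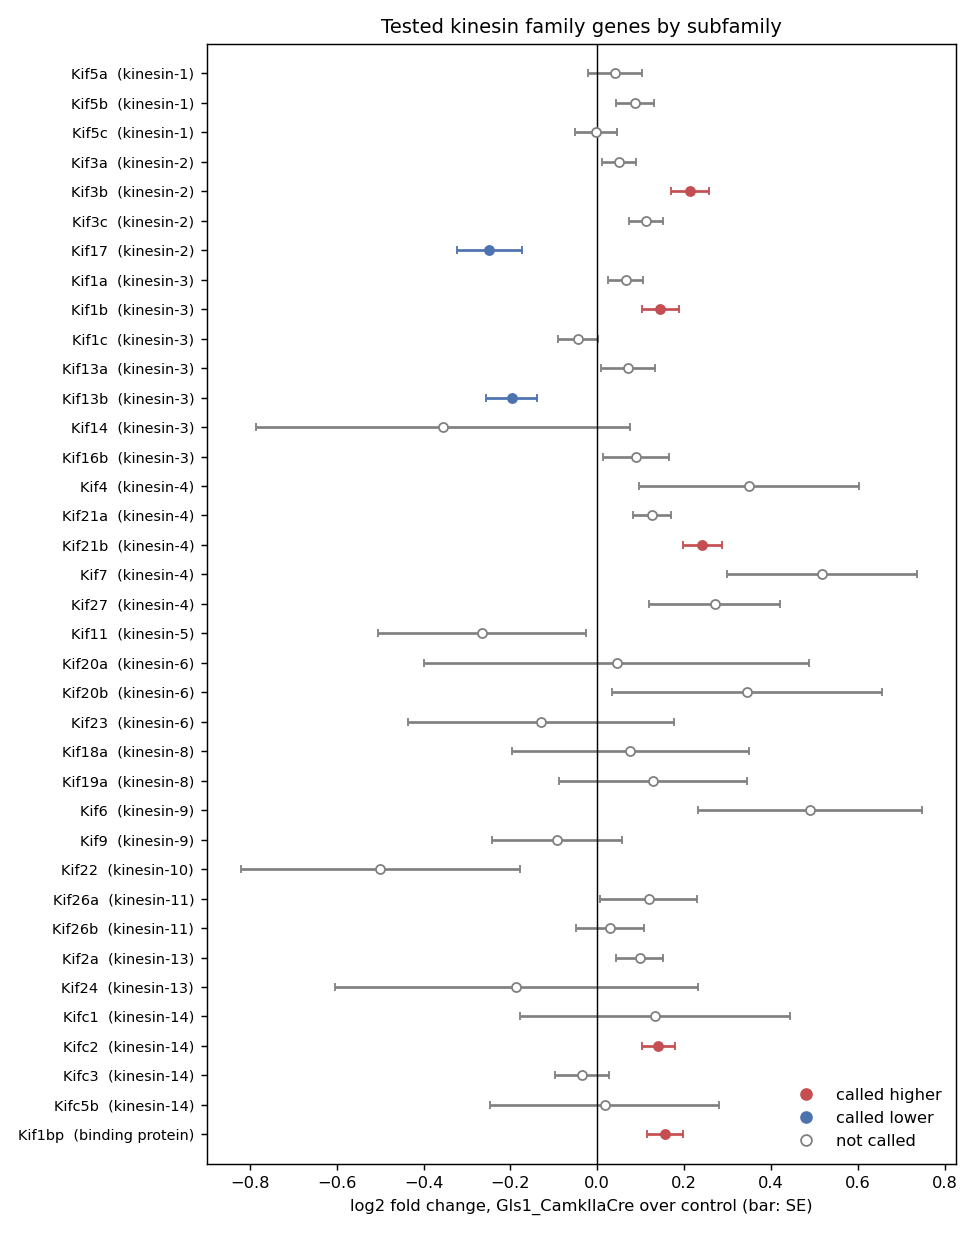
Log2 fold change (x axis, Gls1_CamkIIaCre over control) with its standard error for the 37 tested members, listed by subfamily (y axis); filled red and blue points passed an adjusted p under 0.05 and open points did not. The 7 called genes lie between -0.25 and 0.24, and the wide bars belong to members of low count.

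Expression of these genes in the cortex was dominated by a few neuronal transport motors. On the length-scaled FPKM values, Kif5a had the highest level, with a mean of 307 over the 6 libraries, followed by Kif5c at 124, Kif1a at 95.5 and Kifc2 at 90.2. Ranges over libraries did not overlap between Kif5a and Kif5c or between Kif5c and Kif1a, whereas those of Kif1a and Kifc2 did. Next came Kif1bp at 47.6 FPKM and Kif1b at 46.3, whose ranges overlapped, then Kif5b at 36.3, Kif3c at 33.1 and Kif3a at 30.5, where Kif3c overlapped both of its neighbours. Kif21a, Kif2a, Kif3b and Kif1c lay between 12.3 and 16.7 FPKM, with overlapping neighbours. Kif21b at 9.52, Kifc3 at 7.73, Kif17 at 5.63, Kif13b at 3.29 and Kif13a at 2.71 FPKM each had a range apart from that of the next gene. The called genes lay between the fourth highest level and the seventeenth of the 42 members, and none was among the members of lower level.

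**Figure D2:**
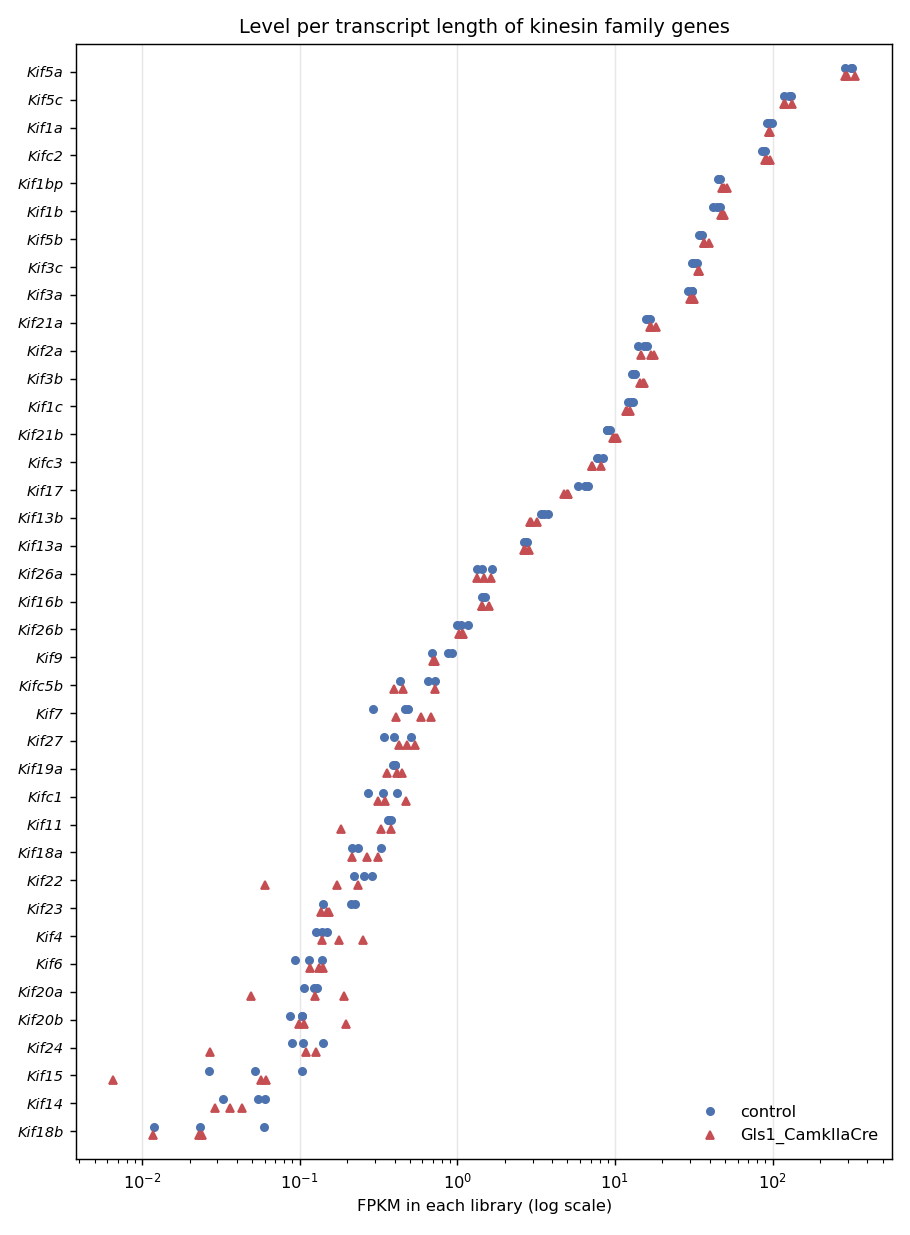
FPKM in each library on a log scale (x axis) for the members with a value above 0 in all 6 libraries (y axis), ordered by their mean; circles are control and triangles Gls1_CamkIIaCre. Kif5a, with a mean of 307 FPKM, lies at the top, and members of the mitotic spindle lie below 1 FPKM.

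The upstream sequences of Kif3b, Kif1b and Kif17 are shown because these are called genes whose entry in the RefSeq promoter table reaches outside the gene, and because the first pair rose while Kif17 fell. They were read 5′ to 3′ on the gene's strand of GRCm38.p6 and end just before the annotated gene, which runs over chr2:153291395-153333390 for Kif3b, chr4:149176319-149307773 for Kif1b and chr4:138262251-138301973 for Kif17. Capitals mark a GC box (GGGCGG, or its complement CCGCCC) or a cAMP response element (TGACGTCA), searched on both strands, and the motifs do not overlap.
Kif3b, chr2:153291166-153291394, plus strand: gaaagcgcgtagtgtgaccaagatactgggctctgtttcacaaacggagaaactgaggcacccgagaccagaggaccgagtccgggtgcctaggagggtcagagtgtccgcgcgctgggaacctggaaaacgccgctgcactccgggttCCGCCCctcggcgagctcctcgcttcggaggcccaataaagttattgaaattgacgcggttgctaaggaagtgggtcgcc
Kif1b, chr4:149307774-149307983, minus strand: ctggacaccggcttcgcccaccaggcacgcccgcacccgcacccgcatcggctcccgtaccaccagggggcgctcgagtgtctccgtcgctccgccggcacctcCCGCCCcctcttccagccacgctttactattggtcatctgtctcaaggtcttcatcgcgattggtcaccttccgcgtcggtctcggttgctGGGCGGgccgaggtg
Kif17, chr4:138262001-138262250, plus strand: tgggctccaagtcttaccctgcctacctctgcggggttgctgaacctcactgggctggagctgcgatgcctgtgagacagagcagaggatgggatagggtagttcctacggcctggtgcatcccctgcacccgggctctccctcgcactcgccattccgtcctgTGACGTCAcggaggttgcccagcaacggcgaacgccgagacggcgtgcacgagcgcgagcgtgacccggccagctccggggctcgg
The Kif3b stretch holds 1 GC box, the Kif1b stretch 2 and the Kif17 stretch none, and only the last has the cAMP response element. Among all promoters of the table, 32.7% hold a GC box and 1.55% a cAMP response element within 250 bases upstream. For the members, 34 of 42 had an entry, in 38 windows, of which 21 held a GC box and 2 the cAMP response element, those of Kif17 and Kif5c. An E-box (CACGTG) was found for Kif1a alone, against 6.02% of all promoters, and a TATA box (TATAAA) in 6 windows, against 12.4%. Some windows lay inside the annotated gene. That of the E-box, chr1:93082481-93082730, lay within Kif1a (chr1:93015455-93102039), and the Kif1a window at the gene's 5′ end held none of these motifs. The TATA box windows of Kif1bp, Kif2c and Kif27 and the GC box windows of Kif3a, Kif21a and Kif26a also lay within their genes. Several other windows ran partly into the gene. The Kif9 windows overlap and share the same TATA box, which lies within the gene. A match is a run of letters only, and binding was not measured. Kif5c was not called, so the element was present both in a gene that fell and in a gene that did not pass.

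Kinesin-1 heavy chains, which pair with light chains to carry mitochondria and vesicles, were not called. Kif5a, found mainly in neurons, had 2941, 3251 and 3304 TMM-normalised CPM (counts scaled to a common library size) in control and 3037, 3151 and 3579 in the Gls1_CamkIIaCre libraries. These groups overlapped, with a log2 fold change of 0.04 ± 0.062 (SE, n = 3 per group, edgeR adjusted p = 0.766). Kif5c, also mainly neuronal, had 1088, 1188 and 1215 CPM against 1121, 1114 and 1248. Its log2 fold change was -0.0032 ± 0.049 (edgeR adjusted p = 0.98), and the groups overlapped throughout. Kif5b, which most cell types use, had 296, 309 and 312 CPM in control and 314, 311 and 348 in the other group (0.09 ± 0.044, edgeR adjusted p = 0.262). Together the kinesin-1 genes made up between 49.0% and 51.9% of the members' summed CPM in every library. The span of Kif5a overlaps Dctn2 on the opposite strand.

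Kinesin-2 genes moved in opposite directions. Kif3b, which pairs with Kif3a and the associated protein Kifap3 to carry cargo in axons and cilia, had 104, 107 and 102 CPM in control mice, and Gls1_CamkIIaCre mice had 122, 123 and 117. All 3 Gls1_CamkIIaCre values lay above all control values. Mean CPM was 104 ± 2.17 and 121 ± 3.14 (SD, n = 3 each), which is a log2 fold change of 0.21 ± 0.043 (SE) with an edgeR adjusted p of 0.00444. Its partner Kif3a had 243, 235 and 247 CPM against 250, 243 and 258, which overlapped (0.05 ± 0.040, edgeR adjusted p = 0.499), and Kifap3 had 375 ± 15.7 against 398 ± 20.7 CPM. The ratio of Kif3b to Kif3a CPM was 0.427, 0.454 and 0.414 in control and 0.490, 0.506 and 0.455 in Gls1_CamkIIaCre, separated by a narrow gap. The same ratio in FPKM overlapped between the groups. Kif3c, another partner of Kif3a, had 264, 283 and 274 CPM against 292, 295 and 299. Its groups did not overlap, yet the difference missed the threshold (0.11 ± 0.039, edgeR adjusted p = 0.0827).

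Kif17, a kinesin-2 motor that acts without Kif3a and is known for carrying NMDA receptor vesicles into dendrites, fell. Its values were 29.2, 35.0 and 33.8 CPM in control and 26.5, 29.2 and 26.8 in Gls1_CamkIIaCre. The groups met at 29.2 CPM, where control 1 lay just above Gls1_CamkIIaCre 2, while in FPKM they were further apart (5.81 against 5.07). The log2 fold change was -0.25 ± 0.075 (SE, n = 3 per group, edgeR adjusted p = 0.0432). The call was absent with DESeq2 (adjusted p = 0.107) and limma voom (0.0698), and once length and GC were corrected for (0.0684). Leaving out single libraries kept it only for control 1, and its adjusted p over all alternatives ranged from 0.0132 to 0.202. The log2 fold change was -0.19 without control 2, and -0.32 without control 1.

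Kif1b and Kif13b were the kinesin-3 genes that changed, again in opposite directions. Kif1b, which carries mitochondria and synaptic vesicle precursors, had 917, 996 and 1032 CPM in control and 1063, 1082 and 1110 in Gls1_CamkIIaCre. Its groups did not overlap, but control 1 lay well below the other controls. Means were 982 ± 59.1 and 1085 ± 23.6 CPM, a log2 fold change of 0.14 ± 0.043 (SE, n = 3 per group, edgeR adjusted p = 0.0405). Without control 1 the value was 0.098 (adjusted p = 0.216), and with length and GC corrected for it was 0.089 (0.28), within a range of adjusted p from 0.00226 to 0.28 over all alternatives. Without other single libraries the Kif1b call held only when control 3 was left out.

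Kif13b (chr14:64652492-64809618), which transports signalling and scaffold proteins and takes part in myelination, had 45.8, 52.0 and 50.3 CPM in the controls against 43.9, 41.7 and 43.6. All Gls1_CamkIIaCre values lay below the controls, with control 1 the nearest to them. The log2 fold change was -0.20 ± 0.059 (SE, n = 3 per group, edgeR adjusted p = 0.0439). Like Kif17, it was not called by DESeq2 (adjusted p = 0.115) or limma voom (0.0632), nor without any library other than control 1, and its adjusted p ranged from 0.0187 to 0.194 over the alternatives. Its close relative Kif13a had 33.5, 35.7 and 35.4 CPM against 36.6, 34.9 and 38.3 and overlapped. The ratio of Kif13b to Kif13a CPM was 1.37, 1.46 and 1.42 in control, and no Gls1_CamkIIaCre library was above 1.2, the lowest being 1.14.

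Markers of several other cell types were lower in the same libraries as Kif17 and Kif13b. The cortex label was met by Slc17a7, Neurod6 and the other markers of excitatory neurons, whose summed CPM lay between 7643 and 8432 over the 6 libraries. Of these 18 markers edgeR called 2 higher and 0 lower, and DESeq2 and limma voom each called 3 higher and 2 lower. Markers of the striatum, which lies beneath the cortex, were lower in Gls1_CamkIIaCre, with a median log2 fold change of -1.53. By edgeR 18 of 23 fell, by DESeq2 and by limma voom 21, and with length and GC corrected for 14. Their summed CPM was 1915, 2777 and 2070 in control against 1126, 1106 and 1136. Oligodendrocyte markers were lower in 9 of 18, with sums of 3828, 4535 and 4297 CPM in control against 3569, 3465 and 3949. Kif17 and Kif13b followed the same order among controls as both sums, lowest in control 1 and highest in control 2. Among Gls1_CamkIIaCre libraries, where the striatal sums lay close together, both sums were lowest in library 2 and highest in library 3. Kif13b was also lowest in library 2 but highest in library 1, and Kif17 was highest in library 2. A link between these orders was not tested. Astrocyte and microglia markers each had 5 of 18 lower, interneuron markers 4 of 17, oligodendrocyte precursor markers 4 of 13 and endothelial and mural markers 7 of 18, with 1 higher. Over all genes tested edgeR called 4.29% lower. With length and GC corrected for, 3 astrocyte, 4 microglia, 1 interneuron and 2 precursor markers were lower. By the same correction 6 endothelial and mural and 8 oligodendrocyte markers were lower, against 2.5% of all genes. Of 16 tested markers of ependyma and cilia edgeR called 1 higher, DESeq2 and limma voom called 0, and none was lower by these tools, with 2 lower at an unadjusted edgeR p under 0.05. In bulk tissue fewer cells of a type, less RNA per cell and a different share of striatum in the sample cannot be told apart. The part of these marker differences in the kinesin results was not tested.

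Kif1a, the main motor of synaptic vesicle precursors, was close to its control level. It had 1202, 1261 and 1337 CPM in control and 1315, 1318 and 1343 in Gls1_CamkIIaCre, which overlapped (0.07 ± 0.041, edgeR adjusted p = 0.373). The ratio of Kif1b to Kif1a CPM was 0.763, 0.790 and 0.772 against 0.808, 0.821 and 0.827, with no overlap. Kif1c, a carrier of Golgi and dense-core vesicles, had 108 ± 3.92 against 105 ± 3.86 CPM, and Kif16b, an endosome motor, 21.9 ± 0.819 against 23.3 ± 1.57 CPM. Neither was called.

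Kif21b (chr1:136131390-136178001), a kinesin-4 motor that slows microtubule growth and is enriched in dendrites, had the smallest p among the members. Its values were 106, 107 and 114 CPM in control and 133, 126 and 128 in Gls1_CamkIIaCre, with a clear gap between the groups. Means were 109 ± 4.56 and 129 ± 3.48 CPM (SD, n = 3 each), and the log2 fold change was 0.24 ± 0.045 (SE) at an edgeR adjusted p of 0.00222. Kif21b and Kif3b were the members called without each library in turn, at 0.22 to 0.28 and 0.20 to 0.24. Kif21b missed the threshold on both log2(FPKM) scales (limma adjusted p = 0.114 with 1 added and 0.113 with 0.1 added) and Kif3b on the first (0.0514), within ranges of adjusted p of 0.000137 to 0.114 and 0.000608 to 0.0514 over all alternatives. Kif21a, its relative, had 242, 253 and 261 CPM against 264, 269 and 292. Those groups did not overlap, with the lowest Gls1_CamkIIaCre library just above the highest control, and the difference missed the threshold (0.13 ± 0.044, edgeR adjusted p = 0.084).

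Kifc2 (chr15:76659784-76668196), a kinesin-14 motor of neurons, had 501, 492 and 496 CPM in control and 525, 550 and 567 in Gls1_CamkIIaCre. The controls were tight and all lay below the other group. The log2 fold change was 0.14 ± 0.039 (SE, n = 3 per group, edgeR adjusted p = 0.028). Spans of Cyhr1 and Foxh1, on the opposite strand, overlap Kifc2, and whether counting used strand is not stated. Cyhr1 itself stood at 143 and 144 CPM in the 2 groups, and Foxh1 was below the filter. Kif2a, a kinesin-13 that takes microtubules apart and limits axon branching, had 146, 130 and 142 CPM against 154, 157 and 136, which overlapped (0.10 ± 0.054, edgeR adjusted p = 0.311).

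Kif1bp (chr10:62558470-62579066), whose protein binds the motor domain of several kinesins and keeps them off microtubules, also rose. It had 168, 164 and 163 CPM in control and 177, 183 and 193 in Gls1_CamkIIaCre, so that the groups did not overlap. The log2 fold change was 0.16 ± 0.042 (SE, n = 3 per group, edgeR adjusted p = 0.0248). Without each library in turn, Kif1bp kept its call without control 1 or Gls1_CamkIIaCre 1 and Kifc2 without control 3 or Gls1_CamkIIaCre 1, with values of 0.12 to 0.19 and 0.11 to 0.17 over all 6. On the FPKM scales neither was called, and the adjusted p over all alternatives ranged from 0.0074 to 0.121 for Kif1bp and from 0.00475 to 0.268 for Kifc2.

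**Figure D3:**
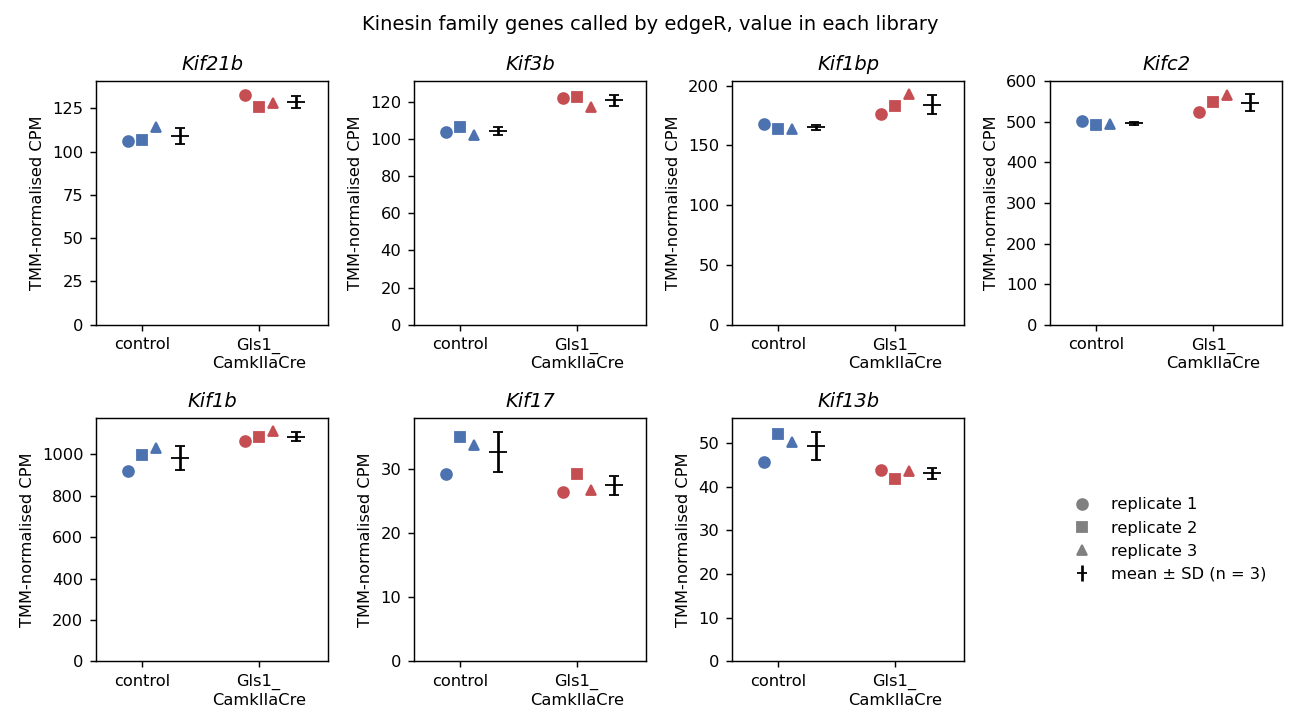
TMM-normalised CPM (y axis, from 0) of the 7 called genes in each library of the 2 groups (x axis), with the mean and SD (n = 3) in black. Kif21b, Kif3b, Kif1bp, Kifc2 and Kif1b lie above their controls in all 3 Gls1_CamkIIaCre libraries; Kif17 and Kif13b lie below, with Kif17 nearly touching at 29.2 CPM.

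**Figure D4:**
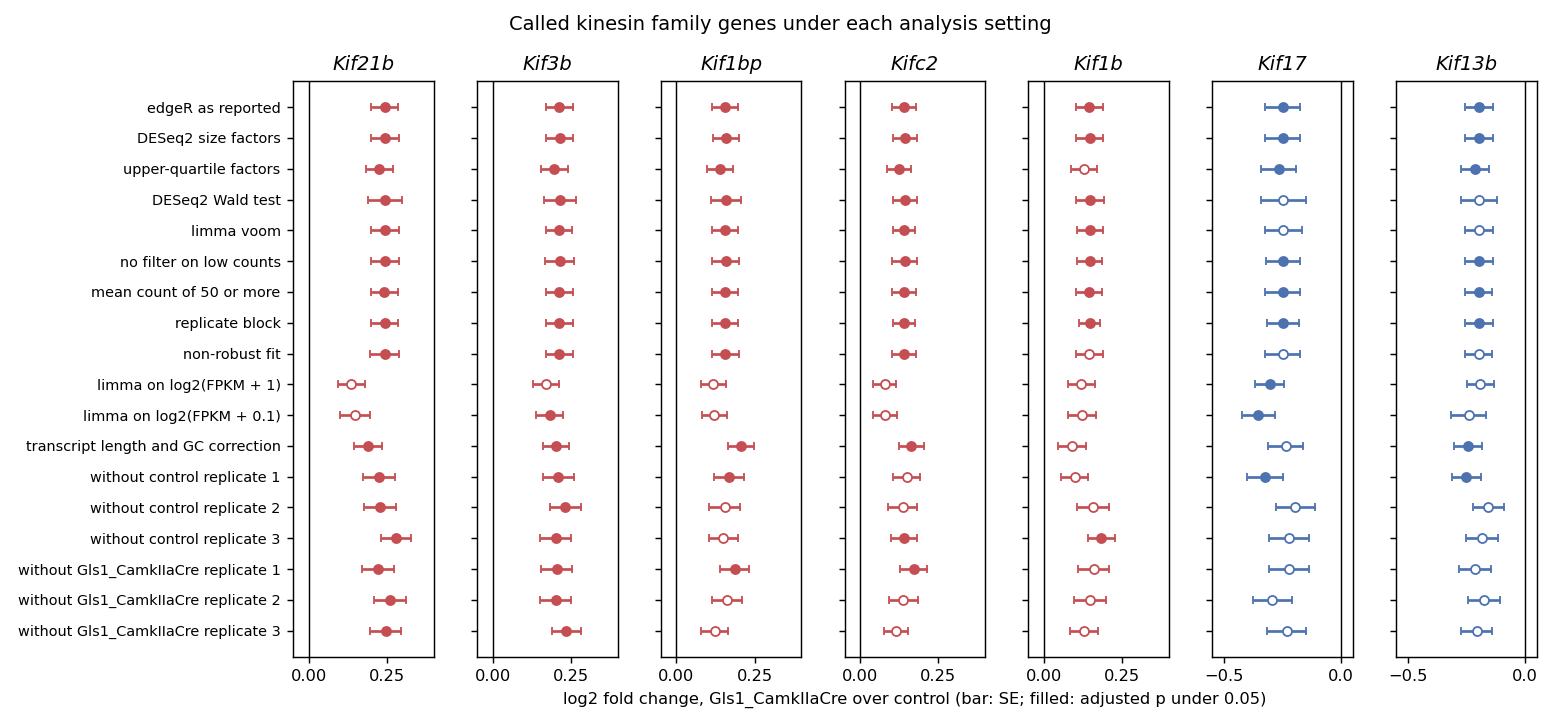
Log2 fold change (x axis, Gls1_CamkIIaCre over control, bars are SE) of the 7 called genes under each analysis setting (y axis); filled points have an adjusted p under 0.05. Every point keeps the sign of the reported value; Kif21b and Kif3b are filled without each library in turn, and, among those 6 settings, Kif17 and Kif13b only without control 1.

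Over all tested members, 8 had every Gls1_CamkIIaCre value above every control value and 3 had every value below, 29.7% of members against 26.7% of all genes tested. By direction the shares were 21.6% against 13.1% for higher and 8.11% against 13.6% for lower. For lower members the share was below that of all genes. Beside the 7 called genes these were Kif3c, Kif21a and Kif6, which were higher, and Kif22, which was lower. Kif6 and Kif22 had only 25 to 38 and 15 to 27 counts per library, and in FPKM their groups overlapped.

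Members of low level could show only large differences. The 17 tested members under a mean of 20 CPM had standard errors of 0.11 to 0.44 on the log2 scale, against 0.039 to 0.078 for the 20 members above it. Kif7, a regulator of Hedgehog signalling in cilia, had the smallest p of that lower set, with 3.27, 1.94 and 3.44 CPM in control and 4.23, 4.85 and 3.32 in Gls1_CamkIIaCre (0.52 ± 0.219, edgeR adjusted p = 0.159). Kif6, a motor of motile cilia, had 1.31 to 1.61 CPM in control against 1.93 to 2.12 (edgeR adjusted p = 0.275), and Kif27 had 5.80 ± 1.07 against 6.99 ± 0.660 CPM. Among genes at 20 CPM or more, a split chosen after the values were seen, 7 of 20 members (35.0%) were called against 11.3% of 8184 genes. Of these 5 were higher and 2 lower, against 6.3% and 4.97% of those genes.

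Mitotic motors were low throughout. Kif11, the spindle motor that pushes poles apart, had 2.74 ± 0.0599 CPM in control and 2.27 ± 0.679 in Gls1_CamkIIaCre, and Kif22, a chromosome-arm motor, 1.27 ± 0.142 and 0.899 ± 0.150. Kif4, which works on chromosomes, had 1.69 ± 0.0775 and 2.16 ± 0.428 CPM. Kif14, Kif18a, Kif20a, Kif20b, Kif23 and Kifc1 also lay below 3 CPM, and none of these mitotic genes was called by edgeR. Kif24, a kinesin-13, was likewise below 3 CPM and not called. Kifc1 and Kifc5b are near-identical copies, and how reads were shared between them is not known. Another 5 members were below the filter. Kif2b had 0 counts in every library, which allows a level of up to 0.167 CPM in the shallowest library (3 counts, counting error only), and Kif12 had 2 counts in 1 library and 0 in the others. Kif15 had 1 to 22 counts, Kif2c 1 to 9 and Kif18b 1 to 5. Of 20 proliferation markers 17 were tested and 0 passed by edgeR, DESeq2 or limma voom, with 1 at an unadjusted edgeR p under 0.05.

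The remaining tested members were Kif9 of cilia, Kif19a, Kif26a, Kif26b and Kifc3. Their log2 fold changes lay between -0.09 and 0.13, and their groups overlapped.

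Partners of the kinesins showed small differences in both directions. Of 29 light chain and adaptor genes 5 were called, 17.2% against 8.24% of all genes tested and close to the share of the kinesins. Trak1, which links mitochondria to kinesin-1, and Ppfia2, a liprin that binds Kif1a, rose by log2 fold changes of 0.13 and 0.14. Mapk8ip1 (JIP1), a scaffold that joins cargo to kinesin-1, fell by 0.18 on the log2 scale, and Arl8a, a lysosome GTPase that recruits kinesin, and Ppfia4 fell by 0.13 and 0.19. The list's median was 0.04, and the light chains Klc1 (688 ± 27.8 against 711 ± 14.6 CPM) and Klc2 (205 against 215 CPM) were not called. DESeq2 called 1 higher and 1 lower on this list, and limma voom 0 and 2.

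Dynein, the motor that walks the other way, had 4 called of 28 genes, 14.3% against the same 8.24% of all genes. Dync1h1, its heavy chain, had 551 ± 11.6 CPM in control and 631 ± 26.0 in Gls1_CamkIIaCre, a log2 fold change of 0.20 (edgeR adjusted p = 0.0045). Hook3, a dynein activator, rose by 0.21 and Dctn1, the large dynactin subunit, by 0.13, while the light chain Dynll2 fell by 0.13 on the log2 scale. The median of that list was 0.01. Of 37 microtubule-associated proteins 3 were called (8.11%). Map1a, Mast1 and Map9 rose by 0.18, 0.18 and 0.14, none fell by edgeR, DESeq2 or limma voom (4 had an unadjusted edgeR p under 0.05), and the median was 0.06. Among 35 tubulins and their modifying enzymes 2 were called (5.71%). Ttll1, a polyglutamylase, and Tubb4a rose by 0.22 and 0.14, none fell by these tools (2 at an unadjusted edgeR p under 0.05), and the median was 0.02. Cenpe and Stard9, kinesins with other names, were not called by edgeR, DESeq2 or limma voom, with Stard9 at an unadjusted edgeR p of 0.0394.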

How the data were processed

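Counts (whole numbers of reads for each gene) and FPKM (values scaled to transcript length and library size) were deposited for all 6 libraries by the authors. Libraries were made from TRIzol RNA with a SMARTer kit, per the labels' protocols, and the submitters' processing notes name the build GRCm38 (mm10). For the aligner, the counter and strand use, these were not given in the sources used here. Libraries held 17987807 to 19330961 counts. Counts were tested over the whole table with edgeR 4.0.16 in R 4.3.3 (TMM factors, filterByExpr, robust quasi-likelihood fit, no covariate), which left 14440 genes. An SE is the size of the log2 fold change divided by the square root of F. The series' design text gives 3 mice per group, and within a group they differed beyond sampling noise (chi-square per degree of freedom of 2.27 to 4.16). The members and gene lists were chosen with earlier results of these data known. Named genes were the called members, 13 neuronal heavy chains, the 6 other members of smallest p, and up to 6 of smallest p from each companion list, or all called ones where these were 8 or fewer. Alternatives were DESeq2 1.42.0, limma 3.58.1 (voom, or log2 FPKM with 1 or 0.1 added), other scaling factors and filters, a non-robust fit, the replicate number as a block, a length and GC correction (GENCODE M21, 99.3% of tested genes, splines with 4 degrees of freedom), and leaving out each library. The fit was run on simulated counts with a single spread shared by all genes. Its pass condition covered only changes larger than any called here. Coordinates and promoters come from RefSeq GRCm38.p6. The level of the targeted gene is not reported here.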

Additional observations from a re-analysis of the deposited data

How the results depend on the processing

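The sign of all 7 called genes held under all 17 alternatives. The count of higher members, 5, was 0 on log2(FPKM + 1) and 1 on log2(FPKM + 0.1), where limma gave 5 at an unadjusted p under 0.05 on each, and it ranged from 2 to 4 without a library in turn. The count of lower members, 2, was 0 with DESeq2, limma voom and the non-robust fit, where both genes had an unadjusted p under 0.05, 1 on log2(FPKM + 1), 1 on log2(FPKM + 0.1) and 1 with length and GC corrected for. It ranged from 0 to 2 without a library in turn, where 1.49% to 3.72% of all genes were lower, with both genes at an unadjusted edgeR p under 0.05 each time. The members' median of 0.0763 was 0.0595 with upper-quartile factors, 0.0851 with limma voom, 0.0871 at a mean count of 50 or more, 0.00867 on log2(FPKM + 1), 0.0212 on log2(FPKM + 0.1) and 0.0672 with length and GC corrected for, and ranged from 0.0705 to 0.0888 without a library in turn. Over all genes tested the median also moved, from -0.0024 to -0.0192 with upper-quartile factors, -0.0230 on log2(FPKM + 1) and -0.0312 on log2(FPKM + 0.1). The members' median lay above that of all genes in each of these settings. On the FPKM scales the log2 fold change of Kif1a was -0.00166 and -0.00167 and that of Kif5a -0.00925 and -0.00928. Without a library in turn Kif5a ranged from -0.0324 to 0.0889 and Kif5c from -0.0582 to 0.0295. The cause of these shifts was not tested. The replicate number gave 7 higher and 2 lower members as a replicate block, against 5.98% and 6.2% of all genes, adding Kif3c (adjusted p = 0.0348) and Kif21a (0.0191). Deviations of same-numbered libraries correlated at 0.139, -0.0263 and 0.140, and 2 of the 3 numbers correlated best with their own. On the second principal component (19.6% of the variance) control and Gls1_CamkIIaCre lay at 11.18 and 11.17 for number 1. They lay at -4.328 and 7.735 for number 2, and at -10.89 and -14.86 for number 3. The labels do not say that the numbers pair mice, so the block was kept as an alternative only. Whether the numbers mark a shared batch was not tested. Depth limited members under 20 CPM, and 3 libraries a group limit every call.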
